A study of Mus musculus with 22 samples.

Results

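The Notch receptors, ligands and targets described here are 10 genes of the 49671 in the table of normalised counts: the receptors Notch1, Notch2 and Notch3, the ligands Jag1, Jag2 and Dll1, the sugar transferase Lfng, and the target genes Hes1, Hey1 and Nrarp. They were chosen by gene name, each name matched 1 gene identifier, and all 10 passed the filter on low values (at least 10 in at least 2 libraries), as did 19569 genes in all. The values were read in 22 mouse RNA-seq libraries, 2 for each of 11 groups. The cells were primary lines grown from a tumour of Lgr5CreER, p53fl/fl, Rosa26-YFP+/+ mice, a background that the control and knockout cells share. Lgr5CreER drives Cre from Lgr5, so in the mouse these alleles recombine in cells that use Lgr5.

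The groups were control cells at day 0 (EPCAM+ only), and control, Pitx1 knockout, Klf5 knockout, Nfatc1 knockout and Creb3l1 knockout cells at day 8, each sorted as living mCherry+ YFP+ cells into an EPCAM+ and an EPCAM- fraction. EPCAM is an adhesion protein of epithelial cells, and its loss from the surface is used to follow the epithelial to mesenchymal transition (EMT). The sort therefore compares tumour cells with and without this protein. What began at day 0 is not given in the sources used here, nor is whether replicates stand for different cultures or clones, so the p-values measure the spread between these libraries, which may be technical. The titles number the replicates and name no batch, so the replicate number was only treated as one.

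Notch receptors are single-pass membrane proteins that are activated by a ligand on a neighbouring cell. Binding exposes the receptor to ADAM proteases and then to gamma-secretase, which frees the intracellular domain. In the nucleus this domain joins the DNA-binding protein RBPJ and Mastermind proteins and switches on targets such as Hes1, Hey1 and Nrarp. Hes1 and Hey1 encode repressors of transcription, Nrarp encodes a small protein that limits Notch signalling, and Lfng encodes a Golgi enzyme that adds a sugar to the receptor and alters which ligand it answers to. The pathway has been linked to EMT in several epithelial tumours and to the choice between cell fates in the skin.

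The start sites of these genes are shown because the transcription factors above act on short words of DNA. The RefSeq table (build GRCm38.p6) held windows from 250 bases before to 50 bases after the start site for 8 members, and Dll1 had 2 of them. Hes1 and Hey1 are named without a window. Each window was searched on both strands for the core of the RBPJ site (TGGGAA), the N box that HES proteins bind (CACNAG) and the E box that Snail and Zeb factors bind (CACCTG). The last of these was added after the values had been seen. The 5 windows printed are those with a match among the genes that were lower in EPCAM- cells (Notch1, Notch3, Nrarp and the second of Dll1) and that of Lfng, which had RBPJ cores. Capitals mark any match to these words, and matches may overlap.
Notch1: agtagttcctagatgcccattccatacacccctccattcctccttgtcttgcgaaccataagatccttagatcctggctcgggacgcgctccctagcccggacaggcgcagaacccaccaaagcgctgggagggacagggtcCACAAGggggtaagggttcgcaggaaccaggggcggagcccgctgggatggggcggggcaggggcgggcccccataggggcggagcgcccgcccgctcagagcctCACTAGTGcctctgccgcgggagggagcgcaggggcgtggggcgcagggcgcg
Notch3: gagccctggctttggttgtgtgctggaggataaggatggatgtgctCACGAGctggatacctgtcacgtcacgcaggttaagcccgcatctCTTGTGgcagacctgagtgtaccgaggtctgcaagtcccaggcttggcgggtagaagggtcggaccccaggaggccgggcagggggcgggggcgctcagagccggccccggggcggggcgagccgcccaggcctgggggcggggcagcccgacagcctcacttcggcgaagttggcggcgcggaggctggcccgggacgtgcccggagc
Dll1: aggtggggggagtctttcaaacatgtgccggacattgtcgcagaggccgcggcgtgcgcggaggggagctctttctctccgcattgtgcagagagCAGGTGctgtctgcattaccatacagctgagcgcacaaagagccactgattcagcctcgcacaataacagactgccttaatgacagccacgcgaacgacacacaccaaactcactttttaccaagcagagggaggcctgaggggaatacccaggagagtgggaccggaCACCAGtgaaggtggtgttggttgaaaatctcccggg
Nrarp: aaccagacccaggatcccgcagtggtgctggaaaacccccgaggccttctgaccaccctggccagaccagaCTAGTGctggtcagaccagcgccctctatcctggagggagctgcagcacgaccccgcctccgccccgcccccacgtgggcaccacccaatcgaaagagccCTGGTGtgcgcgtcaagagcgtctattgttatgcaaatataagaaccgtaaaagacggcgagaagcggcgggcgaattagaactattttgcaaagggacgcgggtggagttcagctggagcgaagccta
Lfng: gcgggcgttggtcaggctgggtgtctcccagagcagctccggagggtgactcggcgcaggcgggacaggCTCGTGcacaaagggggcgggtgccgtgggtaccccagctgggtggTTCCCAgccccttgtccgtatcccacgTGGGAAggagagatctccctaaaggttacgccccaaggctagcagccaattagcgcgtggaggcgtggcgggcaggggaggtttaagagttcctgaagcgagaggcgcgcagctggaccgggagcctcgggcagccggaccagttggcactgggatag

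The Notch1 window, chr2:26503773-26504072 (minus strand), held 3 N boxes, which begin 108, 3 and 1 bases before the start site, the last 2 overlapping. This window lies within the annotated gene, which begins at 26516663. The Notch3 window, chr17:32166841-32167140 (minus strand), held 2 N boxes, 204 and 159 bases before the start. The second Dll1 window, chr17:15376883-15377182 (minus strand), held the only E box among the members' windows, 155 bases before the start site, and 1 N box. It lies wholly upstream of the annotated gene, which begins at 15376872. The first Dll1 window, chr17:15375774-15376073, lies within the gene and held no match. Bases just after the start site lay outside annotated transcripts in the second Dll1 window and in that of Notch3. The Nrarp window, chr2:25180508-25180807 (plus strand), held 2 N boxes, 179 and 79 bases before the start. The Lfng window, chr5:140607091-140607390 (plus strand), held 2 RBPJ cores, 135 and 108 bases before the start and on opposite strands, and 1 N box; no other member's window held an RBPJ core. Of all 32851 windows in the table, 25.6% held at least 1 RBPJ core and 3.79% at least 2. An N box was present in 42.5% of windows, 3 or more in 2.1%, and the E box in 20.2%. Such matches are counts of letters, not binding sites.

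The deposited totals were nearly equal, and the step between values corresponded to 6054909 to 9882692 reads in genes per library, so that 3 reads stood for 6.07 to 9.91 units. Mitochondrially encoded genes took 1.56 to 2.84%. The sort was seen in the RNA: the median value of Epcam was 5627.5 in the 10 EPCAM+ libraries of day 8 and 381.5 in the 10 EPCAM- libraries, and that of Vim was 9810 against 45917.5. In its own knockout line Pitx1 was at 1205 to 1627 against 4358 to 6438 in control cells, and Nfatc1 at 182 to 249 against 488 to 981. Klf5 RNA overlapped between its knockout (1961 to 2247) and the control line at day 8 (1733 to 2941), so it does not check that label. Creb3l1 RNA was at 0 in both EPCAM+ control libraries of day 8 and at 3 and 0 in the EPCAM+ knockout. In EPCAM- cells it was at 137 and 26 in the control line against 6 and 0 in the knockout. The EPCAM- libraries of the Pitx1 (8 and 3), Klf5 (8 and 5) and Nfatc1 (0 and 0) knockouts were similarly low. Creb3l1 RNA therefore does not check the Creb3l1 label either. Basal Krt14 varied widely, from 52 to 12774.

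Divided by the length of the annotated exons, the members spanned very different levels of expression. The median level over the 22 libraries was 1570 units per kilobase for Hes1, 933 for Jag1, 520 for Notch2, 471 for Jag2, 324 for Nrarp, 256 for Lfng and 70.5 for Notch1. Dll1 followed at 12, Hey1 at 1.68 and Notch3 at 0.989 units per kilobase. The ranges of neighbours in this order overlapped in every case, although Hes1 was above Jag1, Lfng above Notch1, and Notch1 above Dll1 within each of the 22 libraries. Notch2 was above Jag2 in 15 libraries, and the order of that pair turned when the longest transcript was used as the length. Notch2 was therefore the receptor with the highest level and Jag1 and Jag2 the ligands with the highest levels, while Hey1 and Notch3 were close to the limit of detection.

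**Figure D1:**
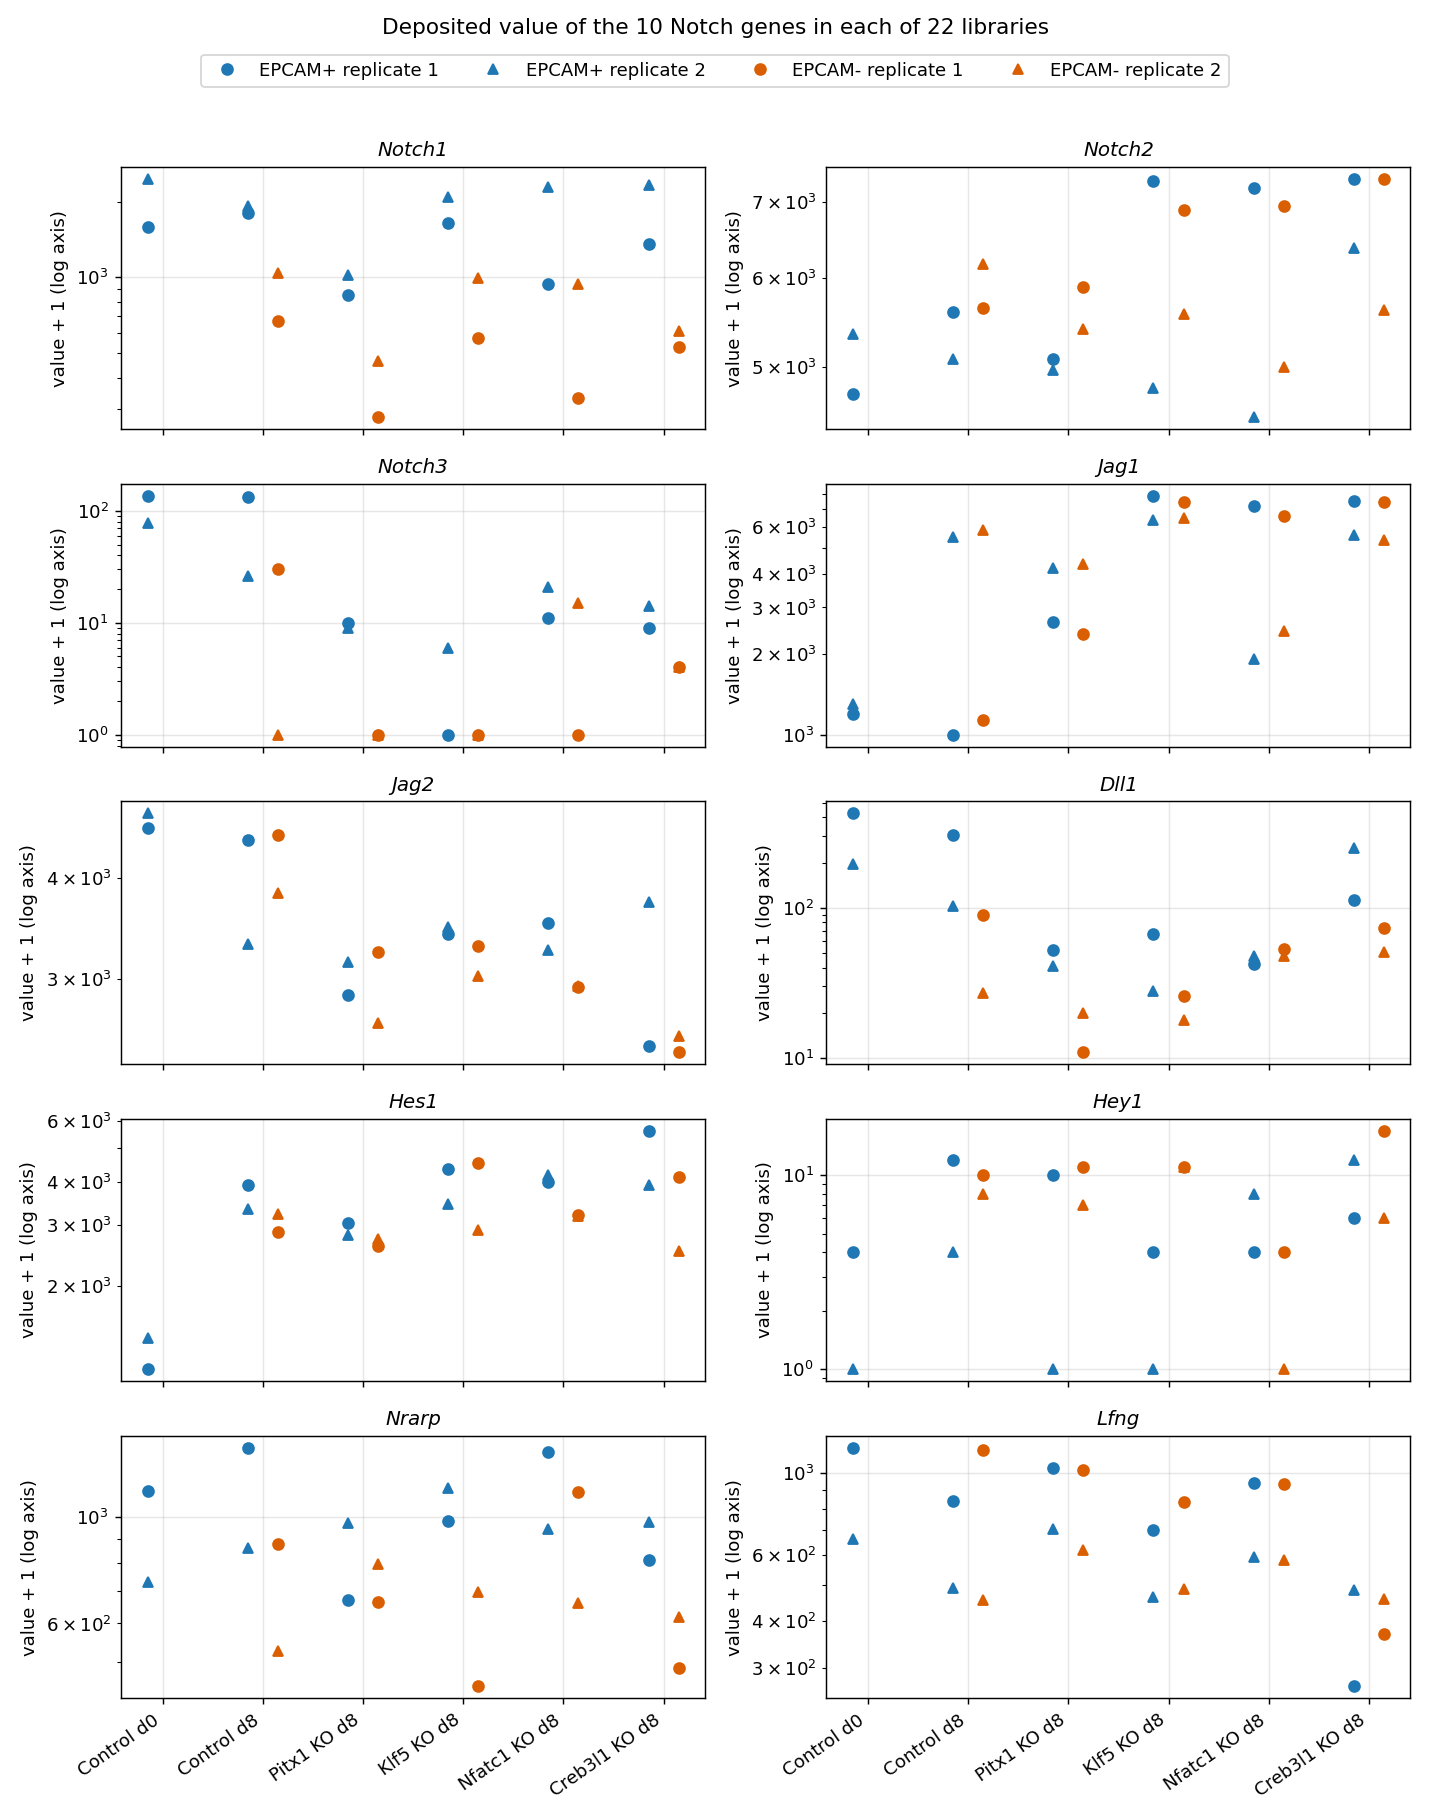
Deposited value plus 1, on a log axis, of each of the 10 genes in all 22 libraries, by line and day, with EPCAM+ libraries in blue and EPCAM- libraries in orange, circles for replicate 1 and triangles for replicate 2. Notch1 lies lower in the EPCAM- library of each pair, Jag1 splits by replicate and line rather than by fraction, and Hes1 is lowest in the 2 day 0 libraries (1147 and 1410).

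Between the fractions at day 8, 4 of the 10 members fell in EPCAM- cells on average over the 5 lines: Notch1, Notch3, Dll1 and Nrarp. None rose. Of all genes tested, 6.22% were called in this comparison (adjusted p below 0.05) and 3.49% fell. The median log2 fold change of the 10 members was -0.19 against 0.06 for all genes tested. In sorted bulk RNA, fewer cells that express a gene and less RNA per cell cannot be told apart.

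Notch1, the receptor best known from skin and blood, was lower in the EPCAM- library of all 10 same-numbered pairs, by 1.85 to 3.81 times. In control cells at day 8 it was at 1799 and 1920 in the EPCAM+ libraries and at 670 and 1037 in the EPCAM- libraries (replicates 1 and 2). In Pitx1 knockout cells the EPCAM+ values were 848 and 1018 and the EPCAM- values 277 and 465. These are the lowest EPCAM+ pair and the lowest EPCAM- mean of the 5 lines. Klf5 knockout cells had 1642 and 2089 against 572 and 990. Nfatc1 knockout cells had 941 and 2290 against 330 and 941, and Creb3l1 knockout cells 1355 and 2320 against 529 and 609. Within a line the fractions did not overlap, except that in Nfatc1 knockout cells the lower EPCAM+ value equals the higher EPCAM- value. Replicate 2 was the higher library in every group. The mean was 642 in 10 EPCAM- libraries and 1620 in 10 EPCAM+ libraries, a log2 fold change of -1.37 ± 0.22 (SE; adjusted p = 0.00108), and the call held without any 1 of the 20 libraries.

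Taken line by line, the log2 difference of Notch1 ran from -1.16 in control cells to -1.64 in Creb3l1 knockout cells (SE 0.49 each). Without the replicate number as a block, none of the 10 members was called in any single line. Per line, 1 to 3 of them were at an unadjusted p below 0.05, and voom on the recovered reads called 0. The share of all genes called was 0.644% in control, 0.317% in Pitx1 knockout, 0.286% in Klf5 knockout, 0.429% in Nfatc1 knockout and 0.291% in Creb3l1 knockout cells. With the replicate number as a block, Notch1 was the 1 member called in each of the 5 lines (adjusted p 0.00528 to 0.048), where 1.14%, 0.705%, 0.521%, 0.956% and 0.583% of genes were called, in the same order. With the fractions paired within each line and number, Notch1 was called in all 5 lines, Nrarp in control, Klf5 knockout and Creb3l1 knockout cells, Dll1 in control and Pitx1 knockout cells, and Hes1 in Creb3l1 knockout cells. That fit called 7.01%, 4.79%, 2.19%, 6.08% and 3.19% of all genes. No difference between a knockout and the control line in the size of the fraction effect was called for any member or any gene (0% in each of the 4 interaction terms, limma), with 1 member at an unadjusted p below 0.05, Dll1 in Nfatc1 knockout cells, and 0 calls by voom.

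Notch1 shares its locus with 2 transcripts annotated on the opposite strand, and both were lower in EPCAM- cells. Gm13568 had a log2 fold change of -1.43 ± 0.23 (adjusted p = 0.000866) and 0610009E02Rik one of -1.33 ± 0.28 (adjusted p = 0.00909), at medians of 27.5 and 143 units. Whether the counting used the strand is not given in the sources used here. Whether reads of Notch1 were kept apart from those of these transcripts is therefore not known.

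Notch2, the most abundant receptor, did not pass the test. Its value ran from 4513 to 7340 in the EPCAM+ libraries at day 8 (median 5340.5) and from 5006 to 7342 in the EPCAM- libraries (median 5766.5), so the fractions overlapped almost completely. It was higher in the EPCAM- library in 7 of 10 pairs, with a log2 fold change of 0.07 (95% interval -0.15 to 0.29; adjusted p = 0.797). Replicate 1 was the higher library in both fractions of the Klf5, Nfatc1 and Creb3l1 knockout lines.

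Notch3, a receptor best known from vascular smooth muscle, was near the limit of detection outside the control line. It was at 135 and 77 in control cells at day 0 and at 131 and 25 in EPCAM+ control cells at day 8. EPCAM- control cells had 29 and 0. EPCAM+ knockout libraries had 9 and 8 (Pitx1), 0 and 5 (Klf5), 10 and 20 (Nfatc1) and 8 and 13 (Creb3l1). In EPCAM- cells it was at 0 in both Pitx1 and both Klf5 knockout libraries, at 0 and 14 in the Nfatc1 and at 3 and 3 in the Creb3l1 knockout. In all, 7 of 22 libraries were at 0. Notch3 was lower in the EPCAM- library in 9 pairs and equal in 1, with a log2 fold change of -2.28 ± 0.62 on the log2(value + 1) scale (adjusted p = 0.0372), a size that depends on the added 1. The call was kept without 5 of the 20 libraries left out in turn (EPCAM- replicate 1 and EPCAM+ replicate 2 of control cells, EPCAM+ replicate 1 of Klf5 knockout cells, and EPCAM+ replicate 1 and EPCAM- replicate 2 of Nfatc1 knockout cells). It ended without any 1 of the other 15, with adjusted p up to 0.0929, and it was not called with voom (0.0792), with a pseudocount of 5, with a filter of 50 or when only the compared groups were fitted (0.051). The antisense transcript Gm17276 at this locus was at 0 in the median library and at most 24.

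Of the ligands, Dll1 was the one that fell. Dll1 is a Delta-type ligand. In control cells it was at 424 and 193 at day 0, at 306 and 101 in EPCAM+ cells at day 8, and at 89 and 26 in EPCAM- cells. In Pitx1 knockout cells it was at 51 and 40 in EPCAM+ and 10 and 19 in EPCAM- cells. Klf5 knockout cells had 66 and 27 against 25 and 17. In these 3 lines both same-numbered pairs went down. Creb3l1 knockout cells had 111 and 249 against 72 and 50, also without overlap, but Nfatc1 knockout cells had 41 and 47 against 52 and 47. Over the 10 pairs it was lower in 8, higher in 1 and equal in 1. The mean was 40.7 against 104, a log2 fold change of -1.15 ± 0.29 (adjusted p = 0.0214). The call was lost with voom (0.0757) and without EPCAM+ control replicate 1, EPCAM- Pitx1 knockout replicate 1 or EPCAM+ Creb3l1 knockout replicate 2 (adjusted p up to 0.0623). A930024N18Rik, annotated on the opposite strand across Dll1, had a log2 fold change of -1.56 ± 0.38 (adjusted p = 0.019) at a median of 20.5 units. Whether its reads were kept apart from those of Dll1 is not known.

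Jag1 and Jag2 are Serrate-type ligands, and neither passed the test between fractions. Jag1 differed by a log2 fold change of 0.03 (95% interval -0.75 to 0.81; adjusted p = 0.978), with 5 of 10 pairs lower and 5 higher and a ratio within pairs of 0.905 to 1.27. Jag2 had a log2 fold change of -0.11 (95% interval -0.28 to 0.07; adjusted p = 0.527) and was lower in 7 of 10 pairs. Its EPCAM+ values ran from 2482 to 4451 and its EPCAM- values from 2439 to 4517. For both ligands the fractions overlapped.

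Among the targets, Nrarp fell. Nrarp was lower in the EPCAM- library of all 10 pairs, by 1.01 to 2.21 times. In control cells at day 8 it was at 1389 and 861 in the EPCAM+ libraries and 875 and 526 in the EPCAM- libraries. Pitx1 knockout cells had 670 and 971 against 663 and 798, and Klf5 knockout cells 977 and 1148 against 443 and 695. The Klf5 knockout is one of 2 lines, with the Creb3l1 knockout, in which the fractions did not overlap. Nfatc1 knockout cells had 1360 and 942 against 1126 and 660, and Creb3l1 knockout cells 811 and 976 against 483 and 619. The mean was 689 against 1010, a log2 fold change of -0.57 ± 0.15 (adjusted p = 0.0343; voom 0.0323). The call ended without 10 of the 20 libraries left out in turn (adjusted p up to 0.085), 2 of each line: EPCAM+ replicate 1 and EPCAM- replicate 2 of control and of Nfatc1 knockout cells, and EPCAM- replicate 1 and EPCAM+ replicate 2 of the other 3 lines. Gm38287, annotated antisense to Nrarp, was almost as abundant (median 799.5 units) and had nearly the same log2 fold change, -0.56 ± 0.16 (adjusted p = 0.0422). Whether reads of the pair were kept apart is not known.

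Hes1, the target with the highest level, was lower in the EPCAM- library in 9 of 10 pairs, yet its log2 fold change of -0.27 ± 0.11 did not pass the test (adjusted p = 0.16; 0.0737 with the replicate block). When the fractions were paired within each line it was called (adjusted p = 0.000448), in a fit that called 22.7% of all genes and the same other 4 members. Its values were 2794 to 5614 in EPCAM+ and 2527 to 4521 in EPCAM- libraries at day 8, and they overlapped. Hey1 was at 0 to 16 in all 22 libraries and at 0 in 4, and the fitted change of 0.61 (95% interval -0.48 to 1.70; adjusted p = 0.574) rests on a handful of reads per library. Lfng, the transferase, did not pass the test (log2 fold change 0.08, 95% interval -0.38 to 0.54; adjusted p = 0.888), with values of 266 to 1027 against 368 to 1146. At this depth no difference was detectable for Hey1.

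Some markers of other cells also differed between the fractions at day 8. From EPCAM+ to EPCAM- libraries the median sum went from 478 to 1896 for fibroblasts and from 21 to 78 for pericytes and smooth muscle. It went from 138.5 to 150 for endothelial cells, 188.5 to 138 for leukocytes and 19.5 to 23.5 for melanocytes. The summed level of 5 fibroblast markers was 140 to 858 in EPCAM+ and 623 to 4926 in EPCAM- libraries at day 8. Col1a1 had medians of 296.5 against 1231, Col3a1 of 5.5 against 62.5, and Pdgfra of 129.5 against 120. Dcn was at 0 in 17 libraries and Lum in 20 of the 22. The 4 markers of pericytes and smooth muscle, cells in which Notch3 is known, summed to 3 to 36 against 24 to 279, with Pdgfrb at a median of 6.5 against 68.5 and Rgs5 and Myh11 at medians of 3 against 0. The 5 endothelial markers summed to 69 to 203 against 65 to 431. Pecam1 had medians of 88.5 against 113, and Tek and Emcn were at 0 in 20 libraries each. The 6 leukocyte markers summed to 125 to 277 against 94 to 175. Csf1r had medians of 188.5 against 129.5, while Cd3e was at 0 throughout and Ptprc at most 9. The 3 melanocyte markers summed to 6 to 45 against 7 to 40. The 6 epithelial markers summed to 32554 to 56789 against 15720 to 25988 and the 4 mesenchymal ones to 21776 to 132259 against 112463 to 170942. The part of these shifts in the differences of the Notch genes was not tested.

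**Figure D2:**
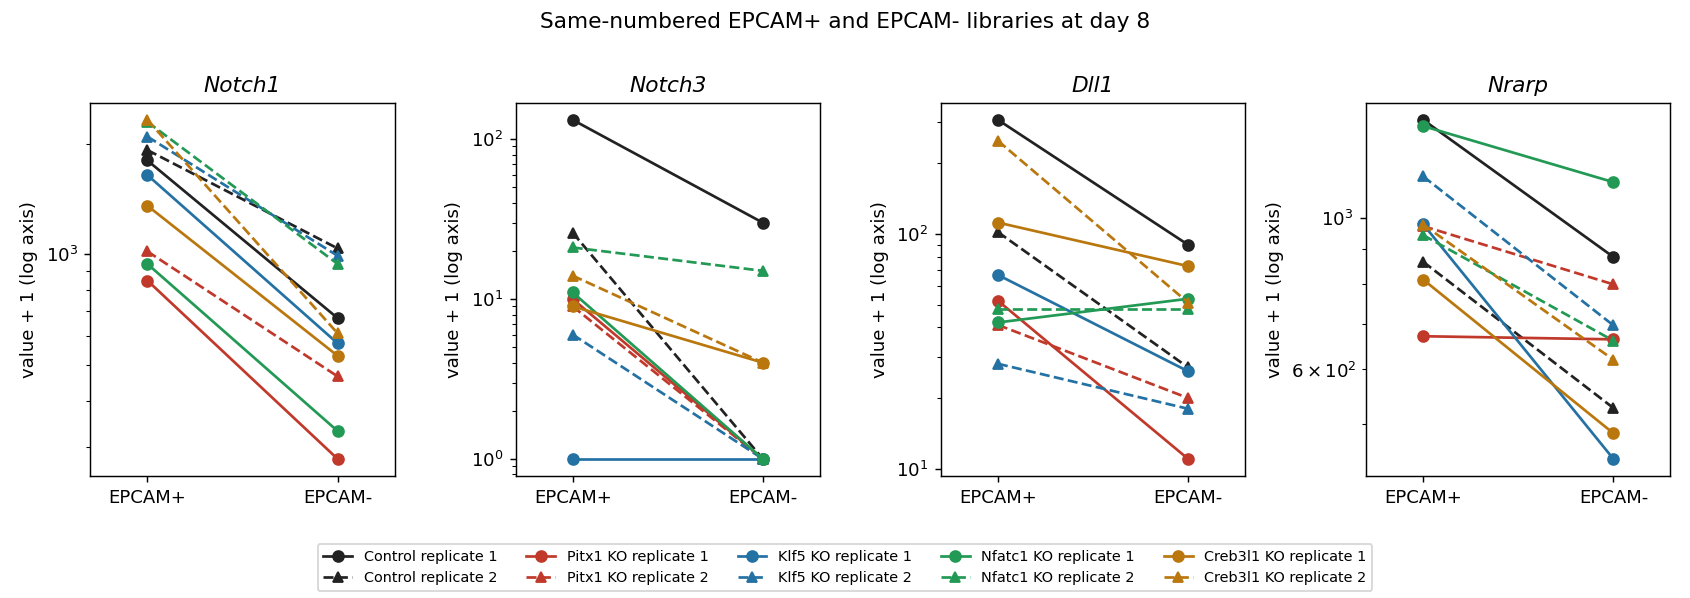
Deposited value plus 1, on a log axis, of the 4 genes that fell, with a line joining the EPCAM+ and the EPCAM- library of the same line and replicate number at day 8 (solid and circles for replicate 1, dashed and triangles for replicate 2). All 10 lines go down for Notch1 and for Nrarp, 9 for Notch3 and 8 for Dll1.

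Over time, Hes1 was the member that stood apart. In the control line it was at 1147 and 1410 at day 0, at 3913 and 3322 in EPCAM+ cells at day 8, and at 2853 and 3213 in EPCAM- cells at day 8. Both day 8 fractions lay wholly above day 0, and each of the 20 day 8 libraries of all lines (2527 to 5614) was above both day 0 libraries. How many of all genes separate in this way is not given here. Against day 0, the EPCAM- cells of day 8 had a log2 fold change of 1.25 ± 0.24 (adjusted p = 0.0103; voom 0.0191), and Hes1 was the 1 member called, where 2.01% of all genes were called. That call ended without either day 0 library or without EPCAM- replicate 2 (adjusted p up to 0.0966).

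In EPCAM+ cells the same step gave a log2 fold change of 1.50 ± 0.24 for Hes1 with an adjusted p of 0.0659, which missed the threshold. No gene of the 19569 was called there (0%, limma), 1 member was at an unadjusted p below 0.05, and voom called 0 members. With the replicate block Hes1 was called (adjusted p = 0.0259) as 1 of 2 genes in all (0.0102%). Without a block the EPCAM+ comparison gave log2 fold changes of -0.09 for Notch1, 0.08 for Notch2, -0.70 for Dll1 and 0.27 for Nrarp, all with adjusted p of 1. Day 0 is shared by both comparisons.

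Other members at day 8 are set beside day 0 as values. Notch1, at 1590 and 2463 at day 0, had a log2 fold change of -1.25 ± 0.49 in EPCAM- cells (adjusted p = 0.244), and Dll1 one of -2.54 ± 0.64 (adjusted p = 0.0503, voom 0.0592). With the replicate block both fell (adjusted p = 0.0145 and 0.0187) along with the rise of Hes1, making 3 members called where 4.31% of all genes were. Notch3 had -4.23 ± 1.40 (adjusted p = 0.14). Hey1 was at 3 and 0 at day 0 and at 9 and 7 in EPCAM- cells. Jag2 was at 4608 and 4809 at day 0, above both control fractions at day 8 (3319 to 4517), with adjusted p of 1 and 0.732. Nrarp, at 1127 and 730, and Lfng, at 1164 and 663, overlapped with both day 8 fractions. Notch2 was at 4734 and 5349.

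**Figure D3:**
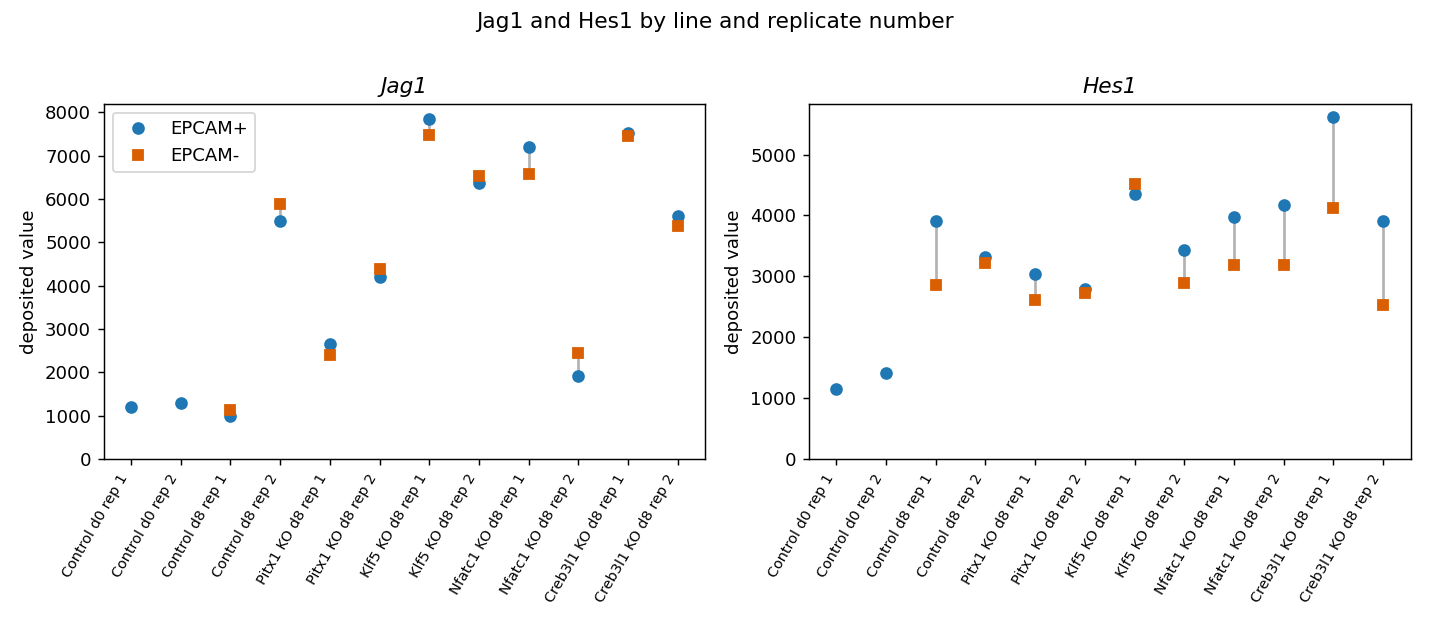
Deposited values of Jag1 and Hes1 for each line and replicate number, with EPCAM+ as blue circles, EPCAM- as orange squares and a grey line joining the fractions sorted from the same line and number. The fractions of Jag1 nearly coincide while its replicates differ, from 998 to 5498 in EPCAM+ control cells, and Hes1 lies at 1147 and 1410 at day 0 and from 2527 up at day 8.

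Jag1 varied between replicates more than between fractions. In control cells at day 8 it was at 998 and 1138 in the 2 fractions of replicate 1 and at 5498 and 5882 in those of replicate 2. At day 0 it was at 1197 and 1300, close to replicate 1. In Nfatc1 knockout cells the order was turned, with 7207 and 6585 in replicate 1 and 1926 and 2454 in replicate 2. Pitx1 knockout cells had 2645 and 2393 against 4203 and 4377. In Klf5 knockout cells Jag1 was at 7860 and 7483 against 6367 and 6523, and in Creb3l1 knockout cells at 7533 and 7445 against 5612 and 5370. No single replicate number was thus the high one in all lines.

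This was looked at further after the values had been seen. In control cells replicate 2 exceeded replicate 1 by 2.46 on the log2 scale in EPCAM+ and by 2.37 in EPCAM- cells. Among 4679 genes with a mean value of at least 1000, 4 differed between replicates by as much in both fractions and in one direction, Jag1 among them (0.0855%). In Nfatc1 knockout cells the difference was -1.90 and -1.42, reached by 25 genes (0.534%). For Pitx1, Creb3l1 and Klf5 knockout cells the share was 2.97%, 10.6% and 43.9%. The fitted contrasts of Jag1 against the control line or day 0 rest on this pair of control replicates: against day 0 the EPCAM- log2 fold change of 1.05 became -0.13 or 2.24 when 1 library was left out.

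Each knockout was compared with the same control libraries, so the comparisons share their controls. Averaged over both fractions at day 8, 1 of the 10 members was called in 1 of the 4 knockouts: Dll1 fell in Pitx1 knockout cells. Pitx1 encodes a homeodomain transcription factor. The mean of Dll1 was 30.0 in 4 Pitx1 knockout libraries against 130 in 4 control libraries, a log2 fold change of -1.84 ± 0.45 (adjusted p = 0.0291), where 4.28% of all genes were called. The groups overlapped, because EPCAM- control replicate 2 (26) lay below the EPCAM+ knockout values (51 and 40). The call was lost with voom (0.12) and when only the compared groups were fitted (0.0994). It also ended without replicate 1 of either control fraction, without either EPCAM+ library of the knockout or without its EPCAM- replicate 1. Beside it, Dll1 had log2 fold changes of -1.61 ± 0.45 for the Klf5 knockout (adjusted p = 0.15), -0.97 ± 0.45 for Nfatc1 (0.47) and 0.11 ± 0.45 for Creb3l1 (0.952).

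Notch1 in Pitx1 knockout cells had a mean of 652 against 1360, a log2 fold change of -1.11 ± 0.35 that did not pass the test (adjusted p = 0.0914), although it did when only the compared groups were fitted (0.0314). Each knockout library was below both control libraries of the same fraction. With the replicate block Notch1 (adjusted p = 0.0017), Dll1 (0.00946) and Jag2 (0.0389) all fell in this line, 3 of 10 members where 8.77% of genes were called. The other knockouts had Notch1 log2 fold changes of -0.08 (Klf5), -0.46 (Nfatc1) and -0.31 (Creb3l1), with adjusted p of 0.951, 0.652 and 0.79. Of the fractions of Pitx1 knockout cells taken singly, the blocked fit called Notch1 in EPCAM- cells (log2 fold change -1.21, adjusted p = 0.0221, 2.51% of genes called) and no member in EPCAM+ cells.

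Jag2 was lower than control in mean in all 4 knockouts, against the same 4 control libraries (mean 4030). The mean was 2980 for the Pitx1, 3310 for the Klf5, 3160 for the Nfatc1 and 2800 for the Creb3l1 line. In Pitx1 knockout cells the 4 values (2647 to 3239) did not overlap with the control values (3319 to 4517). Log2 fold changes were -0.43 ± 0.13 (adjusted p = 0.078), -0.28 ± 0.13 (0.413), -0.34 ± 0.13 (0.379) and -0.54 ± 0.13 (0.0671), in the same order, and none passed the test. With the replicate block Jag2 was also called in Creb3l1 knockout cells (adjusted p = 0.0293), where 2.27% of genes were. Creb3l1 encodes a membrane-bound transcription factor that is cut and released from the endoplasmic reticulum and Golgi.

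In Klf5, Nfatc1 and Creb3l1 knockout cells no member was called by limma without the block. Of all genes 0.557%, 0.046% and 0.945% were called there by adjusted p. At an unadjusted p below 0.05 were 3, 2 and 3 of the members, while voom called 0 members. The share of all genes at an unadjusted p below 0.05 is not given, here or beside the other such counts. Jag1 had a mean of 7060 in Klf5 and 6490 in Creb3l1 knockout cells against 3380 in control cells, with adjusted p of 0.316 and 0.364. Its Klf5 values (6367 to 7860) lay above all 4 control values (998 to 5882). Lfng had a mean of 394 in Creb3l1 knockout cells against 732 in control cells, with adjusted p of 0.353. Its lowest libraries were the EPCAM+ (266) and EPCAM- (368) ones of replicate 1, and the groups overlapped. Notch2, Hes1, Hey1 and Nrarp had adjusted p of 0.515 or more in all 4 knockouts. Notch3 passed in none of the 4: against a control mean of 46.2 its mean was 4.25 for the Pitx1 knockout, 1.25 for Klf5, 11.0 for Nfatc1 and 6.75 for Creb3l1, with adjusted p of 0.178, 0.149, 0.673 and 0.633. With both fractions pooled, the control and knockout values of Notch3 overlapped in each case. In EPCAM+ cells alone the control values (131 and 25) lay above those of each knockout (0 to 20). None of these EPCAM+ differences passed the limma test (adjusted p of 0.52 or more). In EPCAM- cells the values overlapped with those of each knockout.

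In the 8 comparisons of a knockout with control cells within 1 fraction, no member was called by limma without the block, 0 to 3 members had an unadjusted p below 0.05, and voom called 0. In EPCAM+ cells 0.409%, 0.0511%, 0% and 0.194% of all genes were called in the Pitx1, Klf5, Nfatc1 and Creb3l1 knockouts. In EPCAM- cells the shares were 0.915%, 0.153%, 0% and 0.261%. Few genes of any kind passed with 2 libraries on each side.

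**Figure D4:**
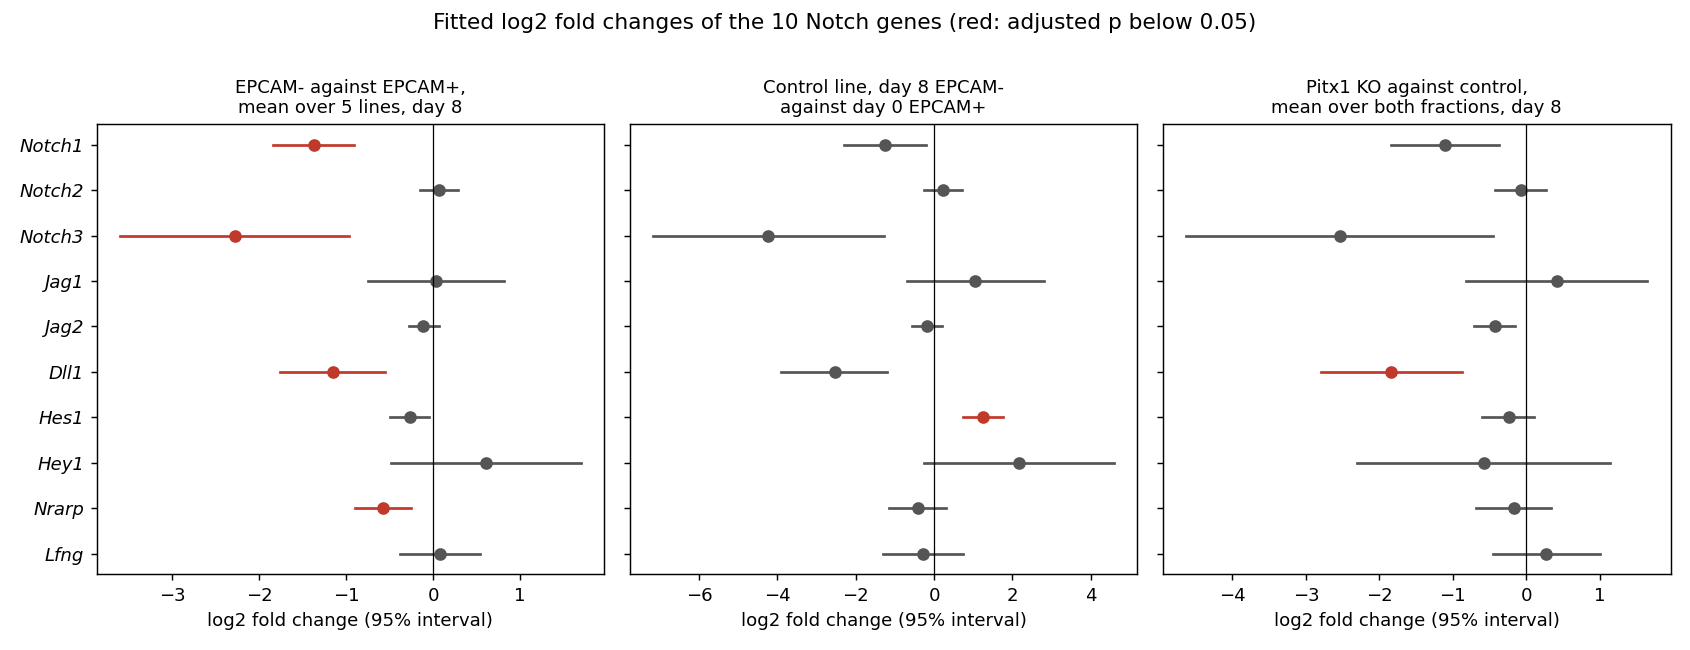
Fitted log2 fold change of each of the 10 genes with its 95% interval in 3 comparisons, each with its own axis range; red marks an adjusted p below 0.05. Notch1, Notch3, Dll1 and Nrarp are called between the fractions, Hes1 (1.25) from day 0 to EPCAM- cells of day 8, and Dll1 (-1.84) in Pitx1 knockout cells.

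The rest of the pathway was read from a list of 67 other Notch genes, of which 56 passed the filter. Untested were the ligand genes Dll3, Dlk1 and Dner, the transferase Mfng, Dtx1, and Hes2, Hes3, Hes5, Hey2, Heyl and Helt. Between fractions 1 of the 56 was called (Numb), where 6.22% of all genes were. The median log2 fold change of the 56 was 0.04, against 0.06 for all genes tested. Numb, an adaptor that promotes uptake and turnover of Notch, fell by 0.30 on the log2 scale (mean 645 against 791, adjusted p = 0.0473). With the replicate block 8 of the 56 were called, 5 higher and 3 lower, where 10.1% of all genes were. With pairing within line 18 were, 10 higher and 8 lower, against the 22.7% given above.

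By role, the members' partners were measured as follows between the fractions. The remaining receptor, Notch4, was low (means 27.3 and 19.5 in EPCAM- and EPCAM+ cells, adjusted p = 0.656), as was the ligand Dll4 (10.5 and 11.2, adjusted p = 0.581). Dlk2, a Delta-like protein, was at 114 against 116 (adjusted p = 0.908). None of 10 genes for the proteases that cut Notch, and none of 17 genes of the nuclear complex with RBPJ, was called. Among 10 tested HES family members and other reported targets, none was called either. Cdkn1a, a cell cycle inhibitor, had a log2 fold change of -1.03 ± 0.33 (adjusted p = 0.0821; 0.0206 with the replicate block). These counts are from the fit without a block. The block called 4 of the 17 nuclear complex genes and 2 of the 10 targets, where 10.1% of all genes were called. With pairing within line it was 6 of 17 and 7 of 10 (3 higher and 4 lower), where 22.7% were. Neither called a protease gene. Over time, Myc fell from a mean of 4790 at day 0 to 2460 in EPCAM- control cells of day 8. Its log2 fold change was -0.96 ± 0.24 (limma, adjusted p = 0.0491), and voom did not call it (0.053). Myc was the 1 gene of the 56 called there by limma, where 2.01% of all genes were. The blocked fit called 2 of the 56 there, 1 higher and 1 lower, where 4.31% of all genes were. In EPCAM+ cells 0 of the 56 were called by limma, with 1 at an unadjusted p below 0.05, and 0 by voom.

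In Pitx1 knockout cells 5 of the 56 were called, 4 higher and 1 lower, where 4.28% of all genes were, and 7 with the replicate block, 5 higher and 2 lower, where 8.77% were. Rbpj, the DNA-binding partner of the cleaved receptor, rose from a mean of 9430 to 14300 (log2 fold change 0.60 ± 0.13, adjusted p = 0.0138). Cir1, a corepressor of RBPJ, rose from 257 to 468 (0.85 ± 0.18, adjusted p = 0.0106). Snw1, a nuclear cofactor of Notch and of splicing, rose from 1650 to 2250 (0.45 ± 0.11, adjusted p = 0.0322). The values of these 3 did not overlap between knockout and control cells. They were picked as called genes, and the share of all genes without overlap is not given here. Pofut1, which adds the O-fucose that Lfng extends, fell from 1010 to 608 (-0.79 ± 0.20, adjusted p = 0.0385), with overlap. When only the compared groups were fitted, Snw1 and Pofut1 were no longer called (adjusted p 0.0922 and 0.082). In the Klf5, Nfatc1 and Creb3l1 knockouts 0 of the 56 were called by limma or voom, with 7, 6 and 9 at an unadjusted p below 0.05. With the replicate block 1 of the 56 was called in the Klf5 knockout, where 1.62% of all genes were. In the Creb3l1 knockout it was also 1, where 2.27% were.

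**Figure D5:**
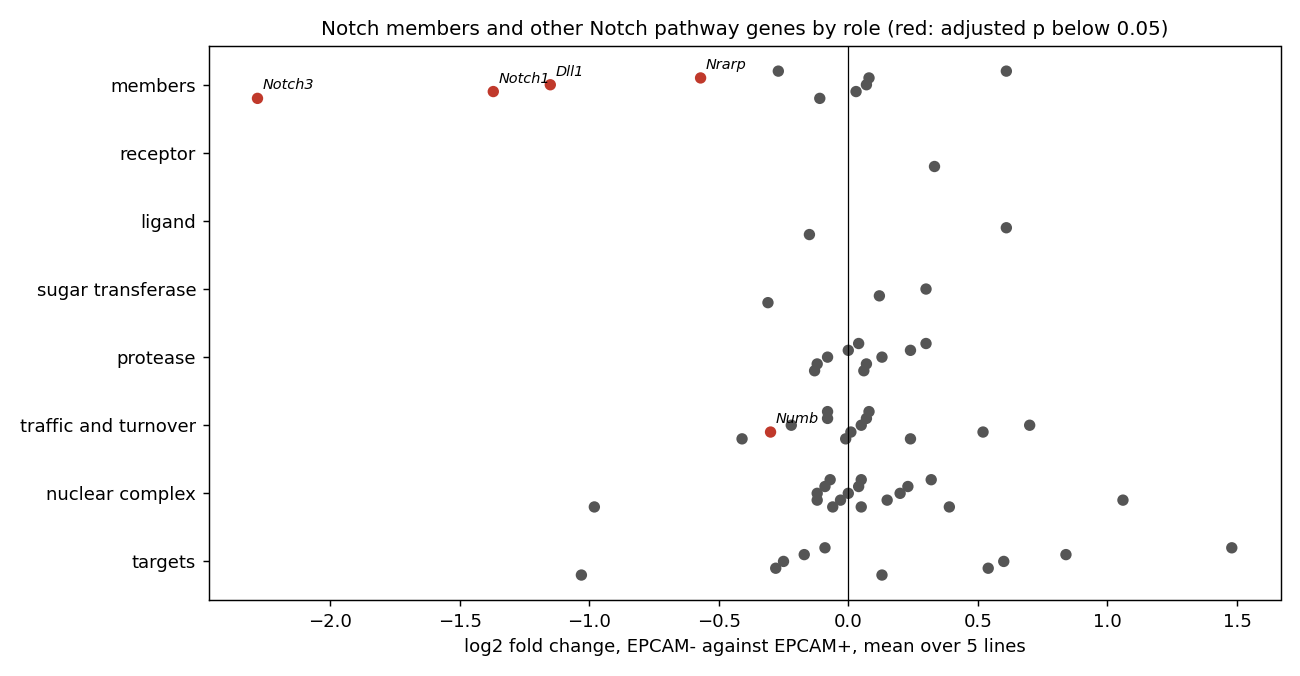
Log2 fold change between EPCAM- and EPCAM+ cells, averaged over the 5 lines, for the 10 members (top row) and the 56 other tested pathway genes by role, with called genes in red and named; the vertical offset within a row only separates points. The 4 called members lie to the left of 0, and Numb (-0.30) is the only called gene among the others.

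The members did not follow one another as a group. Over the 22 libraries, Pearson's r on log2(value + 1) was 0.80 between Notch3 and Dll1, 0.62 between Notch1 and Notch3 and 0.58 between Notch1 and Dll1. It was -0.71 between Notch3 and Jag1 and -0.63 between Jag1 and Jag2. Hes1 had r of -0.02 with Notch1 and -0.05 with Nrarp. These are descriptions: libraries with the same number may share a batch, and low values of Notch3 share the same depth limit.

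Among 10684 genes searched, those most like Notch1 over the 22 libraries were Rps6ka1 (r = 0.92), Morc4 (0.92) and Hook1 (0.90). For Jag1 they were Ccbe1 (0.97), Cotl1 (0.94) and Sdc3 (0.93), and for Notch2 Rnf19b (0.89), Slc12a5 (0.87) and Pdlim1 (0.84). Notch3 was most like S100a14 (0.92), Sgk3 (0.90) and Myh14 (0.89), and Dll1 most like Ngfr (0.90), the stress keratin Krt6a (0.89) and Rfx2 (0.85). Jag2 was closest to Gpr180 (0.87), Gpaa1 (0.86) and Col4a2 (0.86), and Lfng to Tmem18 (0.89) and Myadm (0.88). The best matches were weaker for Hes1 (Foxl1, 0.77, then Hivep1 and Rhov at 0.75), Nrarp (B4galnt3, 0.77, then Lrrc47 and Cmtm4 at 0.76) and Hey1 (Zfp532, 0.68, Nrg1, 0.67, and Foxp1, 0.63).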

How the data were processed

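Per the submitters' processing notes, the authors used FastQC, Trimmomatic, STAR, Picard and HTSeq with GRCm38 (mm10). Versions, strand setting and the scaling formula are not given in the sources used here. The deposited values are described as normalised counts and were treated as a score: each equals a whole number of reads times a step fixed per library, rounded up (99.6 to 99.9% of values). They were not scaled again. Gene identifiers matched GENCODE M21 for 99.5%.

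The test was a limma model (version 3.58.1, R 4.3.3) on log2(value + 1) over 22 libraries with 1 mean per group, trended and robust variances, and Benjamini-Hochberg adjustment over 19569 genes per comparison (24 comparisons). It was tested on simulated data. Alternatives were median-ratio scaling, a pseudocount of 5, no filter or a filter of 50, the compared groups alone, a replicate block across or within lines, voom on recovered reads, and leaving out each library. The replicate number in the sample titles was treated as a batch that pairs libraries, which the titles do not state. Same-numbered libraries of 55 pairs of groups had a median correlation of deviations of 0.146, over 0.1 in 36. The lowest was -0.131, and fractions of a line had 0.171 to 0.381. The members and gene lists were chosen with earlier results of these data known. The named genes were the members, the checks, called pathway genes, and the 3 most like genes per member. Some items are not reported here.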

Additional observations from a re-analysis of the deposited data

How the results depend on the processing

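Counts of members called are given here, against those above. Between fractions averaged over lines the count went from 4 to 2 with voom, to 3 with a pseudocount of 5, a filter of 50 or the compared groups alone (Notch3 lost in each), to 1 to 4 without single libraries, and to 5 with pairing within line. Notch1 was called in each of these. In single lines it rose from 0 to 1 in each of the 5 with the replicate block, and with pairing within line to 3 in control and Creb3l1 knockout, 2 in Pitx1 and Klf5 knockout and 1 in Nfatc1 knockout cells. From day 0 to EPCAM+ cells it went from 0 to 1 with no filter or with the block. From day 0 to EPCAM- cells it went from 1 to 2 with a pseudocount of 5 or no filter, to 3 with the block, and to 0 to 3 without single libraries. In Pitx1 knockout cells it went from 1 to 3 with the block, to 0 with voom and to 0 to 2 without single libraries, and in their EPCAM- fraction from 0 to 1 with the block. In Creb3l1 knockout cells it went from 0 to 1 with the block and to 0 to 1 without single libraries, and in Klf5 knockout cells to 0 to 2. No called member changed sign under any of these alternatives. Where no cause is given, the cause was not tested. Depth limits Notch3, Hey1 and Dll1, which had few reads in most libraries, and 2 libraries per group limit every single-line test.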
